A study of Mus musculus with 6 samples.

Results

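The phagocyte NADPH oxidase is represented here by 5 genes, Cybb, Cyba, Ncf1, Ncf4 and Rac2, which were taken by gene name from the deposited table of 34709 genes. All 5 had a row and all 5 passed the filter on low values described further on. The libraries came from articular cartilage of male mice, per the study's methods, and the column names give an age of 18 months. Of 6 libraries, 3 were labelled KO, for C57BL/6J mice of a knockout line, and 3 were labelled wildtype (WT). The methods describe littermates as the comparison and no treatment is given in the labels for either group. The labels do not say whether the 3 libraries of a group came from separate animals, so a p-value here measures only the spread between these samples.

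The oxidase is a membrane enzyme complex of neutrophils, monocytes and macrophages that passes electrons from NADPH to oxygen and releases superoxide into the phagosome or outside the cell. Cybb encodes gp91phox, the catalytic subunit, and Cyba encodes p22phox, its partner in the membrane. Ncf1 encodes p47phox, the organiser, and Ncf4 encodes p40phox, which binds phosphoinositides on the phagosome. Both wait in the cytosol and move to the membrane when the cell is stimulated. Rac2 is the Rac GTPase of blood cells, and its GTP-bound form completes the active complex. Loss of a phox subunit causes chronic granulomatous disease, in which phagocytes take up microbes but kill them poorly.

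In GRCm38, the build that the table's positions match, Cybb (ENSMUSG00000015340) lies on chromosome X from 9435252 to 9487771, on the minus strand. Cyba (ENSMUSG00000006519) lies on chromosome 8 from 122424776 to 122432930, on the minus strand. Ncf1 (ENSMUSG00000015950) lies on chromosome 5 from 134220053 to 134229625, on the minus strand. Ncf4 (ENSMUSG00000071715) lies on chromosome 15 from 78244801 to 78262580 on the plus strand, and Rac2 (ENSMUSG00000033220) lies on the same chromosome from 78559167 to 78572783 on the minus strand. In the GENCODE vM21 annotation the longest coding transcript had 13 exons for Cybb, 6 for Cyba, 10 for Ncf1, 10 for Ncf4 and 7 for Rac2. Ncf1 overlapped Gtf2ird2 on the opposite strand by 4303 bp, and 3.88% of the 100-nt windows of its longest coding transcript also occurred in Gtf2ird2. Gtf2ird2 itself reached 7.02 FPKM at most, against at least 119.8 FPKM for Ncf1. Cyba was spanned by a gene model on the opposite strand, Gm20388, which was not analysed here. Whether the authors counted by strand is not given in the sources used here.

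The sequences just before the transcription starts are shown because Spi1, one of the transcription factor genes listed with the pathway, encodes PU.1, which binds a purine-rich box. The RefSeq promoter table (GRCm38.p6) held entries for 3 of the 5 members, Cybb, Cyba and Ncf1, and none for Ncf4 and Rac2. The lines give the 250 bases before each start, 5′ to 3′ on the strand of the gene, at chrX:9469305-9469574 (minus strand, with 20 transcribed bases added), chr8:122432941-122433190 (minus strand) and chr5:134229626-134229875 (minus strand).
Cybb: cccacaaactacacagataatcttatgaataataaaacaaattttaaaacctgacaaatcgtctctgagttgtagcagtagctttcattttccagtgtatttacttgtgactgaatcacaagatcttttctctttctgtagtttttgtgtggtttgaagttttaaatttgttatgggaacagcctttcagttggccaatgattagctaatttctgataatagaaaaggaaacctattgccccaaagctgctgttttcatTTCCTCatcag
Cyba: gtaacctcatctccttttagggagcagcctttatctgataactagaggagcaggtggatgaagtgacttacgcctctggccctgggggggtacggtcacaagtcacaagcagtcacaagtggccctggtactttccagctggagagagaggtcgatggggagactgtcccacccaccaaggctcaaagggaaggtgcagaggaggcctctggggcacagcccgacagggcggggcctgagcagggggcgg
Ncf1: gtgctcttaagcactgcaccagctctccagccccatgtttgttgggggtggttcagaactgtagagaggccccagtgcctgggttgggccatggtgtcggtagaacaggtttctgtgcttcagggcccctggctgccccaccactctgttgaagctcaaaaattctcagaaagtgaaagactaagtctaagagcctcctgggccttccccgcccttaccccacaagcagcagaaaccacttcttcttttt
Capitals mark the 1 match to the box GAGGAA, searched on both strands over 250 bases before to 50 bases after the start, with no other motif searched. It lay in Cybb on the opposite strand, at bases 10 to 15 of the transcript, and neither Cyba nor Ncf1 held a match in this window. The box was present in 28.3% of all 32851 promoters in the table, so a match is a description of letters only. The RefSeq start of Cybb, at 9469324, falls inside the gene span of the deposited table. The full entry of Cybb had a GC content of 35.3%, that of Cyba 60.7% and that of Ncf1 54.0%, against a median of 52.7% over all promoters.

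The libraries held 52268311 to 63331135 counts. KO replicates 2 and 3 were far closer to each other (r = 0.99383 over genes) than the other 14 pairs (r from 0.95861 to 0.97961), and their squared differences were 5.72 times the counting variance in the least abundant class of genes compared and 6.11 times in the most abundant, against 11.8 to 41.1 times and 73.8 to 604 times in the other pairs. They were averaged and counted as 1 sample, giving 2 KO and 3 WT samples. Their likeness was known from an earlier analysis of these data, so the averaging was decided with results known. The 6 libraries as labelled are given beside this. On the first principal component, which held 48.4% of the variance, the library labelled KO replicate 1 lay at 13.5, near the WT libraries at 16.1 to 20.2 and away from the other KO libraries at -33.9 and -33.8. Of 8 chondrocyte markers, Prg4 stood at 402 to 1034 FPKM, Comp at 41.0 to 109 FPKM, Acan at 13.2 to 22.8 FPKM and Col2a1 at 12.4 to 21.3 FPKM, Sox9 and Cnmd stood below 3 FPKM, and Col9a1 and Matn3 did not pass 0.5 FPKM. FPKM counts sequenced fragments for each kilobase of a transcript after scaling for library size. Levels of different genes are compared only in this unit.

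All 5 members were abundant. By mean FPKM they ranked between 149 (Cyba) and 436 (Ncf4) from the top of the 15373 genes that averaged 0.5 FPKM or more. All 5 were also higher in every KO library than in every WT library, by 1.37-fold for Cyba to 1.83-fold for Cybb, while 47.5% of all genes tested had a fitted difference above 0. Of all genes tested, 11.3% had all 3 KO libraries above all 3 WT libraries. None of the 5 passed an adjusted p of 0.05 in edgeR's quasi-likelihood test of 5 samples, in which 0% of genes passed, while 2106 genes had an unadjusted p under 0.05. All 5 had such a p with a higher KO level, as did 7.63% of genes. With the 6 libraries as labelled, 4 of the 5 passed the adjusted threshold, all but Cyba, against 2.46% of all genes that passed with a higher KO level. DESeq2 on the 5 samples passed the same 4 members, against 3.44% of genes. Neutrophil markers were also higher in KO by fitted difference (14 of 14, median log2 difference 0.86 against 0.73 for the 5 members and -0.02 for all genes), and their part in the result was not tested.

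**Figure D1:**
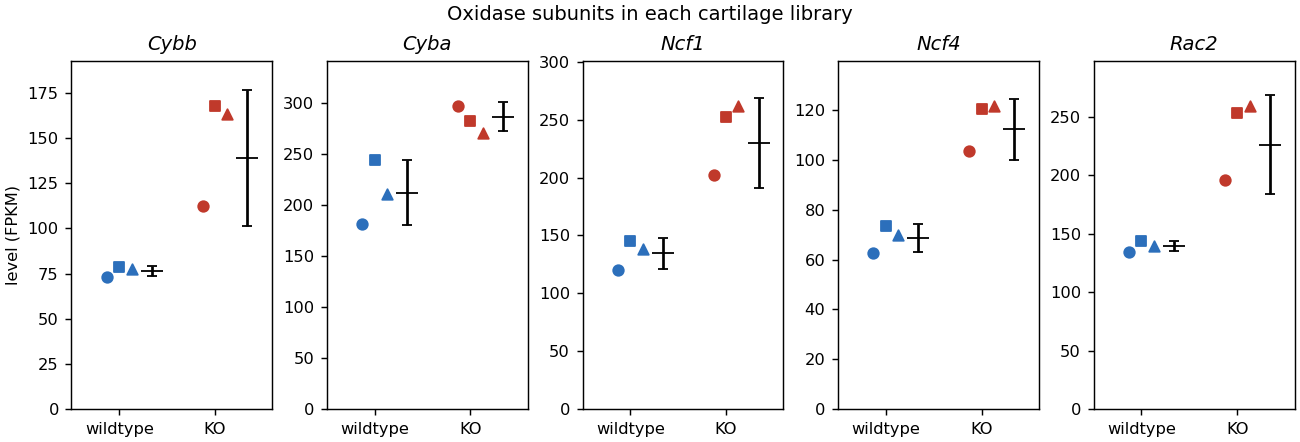
Level of each oxidase member in FPKM (vertical axis, from 0, a separate scale per gene) in the 3 WT libraries (blue) and 3 KO libraries (red). Circles, squares and triangles are replicates 1, 2 and 3, and the black bar beside each group is the mean ± SD over 3 WT samples or over 2 KO samples, with KO replicates 2 and 3 averaged. In each panel all red points lie above all blue points. The red circle is the lowest KO point for Cybb, Ncf1, Ncf4 and Rac2 and the highest for Cyba.

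Cybb, the catalytic subunit, stood at 112, 168 and 163 FPKM in KO replicates 1, 2 and 3. In WT replicates 1, 2 and 3 it stood at 73.3, 78.5 and 77.4 FPKM. The WT libraries were tightly grouped and the library labelled KO replicate 1 lay between them and the other KO libraries. Mean levels were 76.4 ± 2.77 FPKM in WT (SD, n = 3) and 139 ± 37.5 FPKM in KO (SD, n = 2). The fitted log2 difference (KO minus WT) was 0.87 ± 0.19 (SE; edgeR adjusted p = 0.168). With the 6 libraries as labelled it was 0.94 (edgeR adjusted p = 0.0363). This was the largest difference of the 5, at rank 327 of 15373 genes from the highest. Cybb alone among the members also passed without KO replicate 1, at 1.08 (edgeR adjusted p = 0.0435), where 1.7% of genes passed with a higher KO level.

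Cyba, the membrane partner of gp91phox, stood at 296, 282 and 271 FPKM in KO replicates 1, 2 and 3. In WT replicates 1, 2 and 3 it stood at 181, 244 and 211 FPKM. The gap between the groups was narrow, from 244 FPKM in the highest WT library to 271 FPKM in the lowest KO library, and here the library labelled KO replicate 1 was the highest of all. The log2 difference was 0.45 ± 0.19 (SE; edgeR adjusted p = 0.350), the smallest of the 5. Its edgeR adjusted p was 0.166 with the 6 libraries as labelled, and it did not pass in any of 16 alternative settings.

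Ncf1, the organiser subunit, stood at 202, 253 and 262 FPKM in KO replicates 1, 2 and 3. In WT replicates 1, 2 and 3 it stood at 119.8, 145 and 139 FPKM. The groups were well apart, with the library labelled KO replicate 1 the lowest of the KO libraries. The log2 difference was 0.78 ± 0.19 (SE; edgeR adjusted p = 0.175), and 0.82 with the 6 libraries as labelled (edgeR adjusted p = 0.0396).

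Ncf4, the phosphoinositide-binding subunit, stood at 104, 121 and 122 FPKM in KO replicates 1, 2 and 3. In WT replicates 1, 2 and 3 it stood at 62.5, 73.4 and 69.7 FPKM. It had the smallest SE and the smallest unadjusted p of the members, with a log2 difference of 0.73 ± 0.14 (SE; edgeR adjusted p = 0.166). With the 6 libraries as labelled the difference was 0.74 (edgeR adjusted p = 0.0358).

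Rac2, the GTPase, stood at 196, 253 and 259 FPKM in KO replicates 1, 2 and 3. In WT replicates 1, 2 and 3 it stood at 135, 143 and 139.8 FPKM. The KO libraries varied more among themselves than the WT libraries, which spanned less than 10 FPKM. The log2 difference was 0.71 ± 0.17 (SE; edgeR adjusted p = 0.175), and 0.76 with the 6 libraries as labelled (edgeR adjusted p = 0.0369). Rac2 and Ncf4 share a stretch of chromosome 15, 296586 bp apart with 14 genes between them. Of these, 7 were tested and 4 were higher in KO, 3 with an unadjusted p under 0.05 and none lower with such a p. Over all genes tested, 47.5% were higher and 7.63% had such a p with a higher KO level. The median log2 difference of the 7 was 0.06 against -0.02 over all genes tested.

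Per length of transcript, the order of levels was Cyba, then Ncf1 and Rac2, then Cybb, then Ncf4, and it was the same by KO and by WT mean for all but the middle pair. Ncf1 and Rac2 did not differ beyond their spread: their KO means were 229.7 and 226 FPKM and their WT means 135 and 139 FPKM. The ranges of Cybb and Ncf4 overlapped within KO and within WT, but in each single library Cybb was above Ncf4. The summed FPKM of the 5 members was 911 to 1076 in the KO libraries and 571 to 685 in the WT libraries.

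Rac1, Cybc1 and Rap1a, whose products act with the complex, had smaller fitted differences than the members, a comparison that was not tested. Rac1, the broadly expressed relative of Rac2, overlapped between the groups and had a log2 difference of 0.22 (edgeR adjusted p = 0.577). Cybc1, a chaperone of the gp91phox and p22phox pair, had 0.17 (edgeR adjusted p = 0.602), and Rap1a, a small GTPase found with the membrane subunits, had -0.15 (edgeR adjusted p = 0.745). None of the 3 had an unadjusted p under 0.05, and their median log2 difference was 0.17.

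Other NADPH oxidases stood near 0. Of 9 genes for other catalytic subunits and their partners, 7 were analysed and none reached a mean of 0.5 FPKM. The highest single value was 0.425 FPKM, for Nox4 in the library labelled KO replicate 1, and none entered the 5-sample test with this filter.

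**Figure D2:**
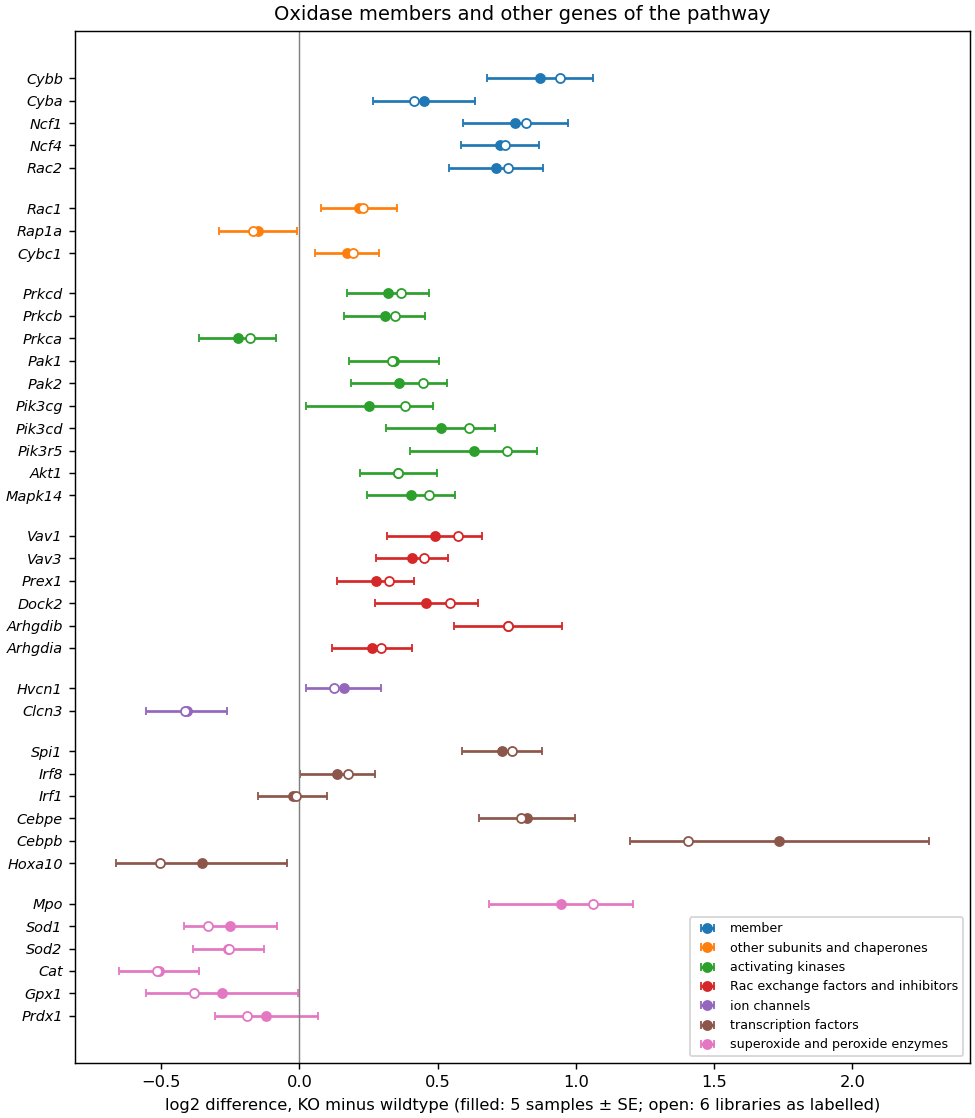
Log2 difference (KO minus WT, horizontal axis) of the oxidase members and of the tested genes of the other pathway lists. Filled points with bars are edgeR fits of 5 samples ± SE and open points are fits of the 6 libraries as labelled. Members lie between 0.45 and 0.87, and Cat, Sod1, Sod2 and Clcn3 are among the genes left of 0.

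Upstream of the oxidase, kinases phosphorylate the cytosolic subunits and lipid kinases make the phosphoinositides they bind. Of 10 such kinase and regulatory subunit genes, 9 were higher in KO (median log2 difference 0.35), against 47.5% of all genes tested. Of the 10, 4 had an unadjusted p under 0.05 with a higher KO level, against 7.63% of all genes. None of the 10 passed adjustment in either edgeR fit. The 3 most extreme by that test were Pik3r5 at 0.63 (edgeR adjusted p = 0.294), a regulatory subunit of PI3Kγ, Pik3cd at 0.51 (edgeR adjusted p = 0.318), a leukocyte PI3K, and Akt1 at 0.36 (edgeR adjusted p = 0.325). For Pik3r5 and Pik3cd the library labelled KO replicate 1 lay within the WT range, at 7.55 and 23.3 FPKM. Of 6 genes for factors that load Rac with GTP or hold it inactive, all 6 were higher (median 0.43), against 47.5% of all genes. Of the 6, 4 had an unadjusted p under 0.05, against 7.63% of all genes with a higher KO level. Arhgdib, a leukocyte inhibitor that keeps Rac in the cytosol, stood at 746, 807 and 807 FPKM in the KO libraries and 441, 508 and 444 FPKM in the WT libraries, a log2 difference of 0.76 (edgeR adjusted p = 0.186, and 0.0428 for the 6 libraries). Vav3 and Vav1, exchange factors for Rac, had 0.41 and 0.49 (edgeR adjusted p = 0.250 and 0.278). Hvcn1, the proton channel that balances the charge moved by the oxidase, had 0.16 (edgeR adjusted p = 0.704). Clcn3, a chloride and proton exchanger, had -0.41 (edgeR adjusted p = 0.289).

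Of 6 transcription factor genes tied to oxidase genes or myeloid maturation, 4 were higher in KO and 3 had an unadjusted p under 0.05 (median 0.44). Over all genes tested, 47.5% were higher and 7.63% had such a p with a higher KO level. Spi1, encoding PU.1, stood at 71.8, 89.1 and 90.2 FPKM in the KO libraries and at 44.6, 51.5 and 50.7 FPKM in the WT libraries. These groups did not overlap, and the log2 difference was 0.73 ± 0.15 (SE; edgeR adjusted p = 0.166, and 0.0358 for the 6 libraries). Cebpe, a factor of late neutrophil maturation, had 0.82 (edgeR adjusted p = 0.166, and 0.0379 for the 6 libraries). Cebpb had 1.74 (edgeR adjusted p = 0.237), but this rested on 26.8 FPKM in the library labelled KO replicate 1, and without that library it was 0.38. Of 6 genes for enzymes that use or remove superoxide and peroxide, 5 were lower in KO, with a median of -0.25. Over all genes tested, 47.5% had a fitted difference above 0. Mpo, which makes hypochlorous acid from peroxide in neutrophil granules, was the exception at 0.95 (edgeR adjusted p = 0.200). Cat, catalase, had -0.51 (edgeR adjusted p = 0.209). Cat, alone of these 5, and Clcn3 had an unadjusted p under 0.05, as did 6.07% of all genes with a lower KO level. Sod2, the mitochondrial superoxide dismutase, had -0.26 (edgeR adjusted p = 0.451).

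These are bulk samples, in which more cells of a type and more RNA per cell cannot be told apart. Markers of neutrophils were higher in KO, as the members were. The order of the KO libraries varied among these markers, as it did among the members. All 14 markers of neutrophils and their precursors, Mpo among them, were higher in KO, with a median log2 difference of 0.86. Of the 14, 10 had an unadjusted p under 0.05 and 13 had all KO libraries above all WT libraries. Over all genes tested, 47.5% were higher, 7.63% had such a p with a higher KO level and 11.3% were separated in this way. The summed level of the 14 markers was 51719 to 62966 FPKM in KO and 27313 to 44188 FPKM in WT, and none of them was at 0. S100a9, S100a8 and Ngp, the most abundant of them, differed by 0.79, 0.73 and 0.85 on the log2 scale (edgeR adjusted p = 0.501, 0.543 and 0.354). The library labelled KO replicate 1 was the highest KO library for these, with S100a9 at 27817, 22113 and 22919 FPKM in KO replicates 1, 2 and 3. For others it was the lowest, with Mpo at 343, 620 and 611 FPKM. Monocyte and macrophage markers lay in both directions, 6 of 12 higher against 47.5% of all genes, with a median of -0.07. Their sums were 605 to 617 FPKM in KO and 527 to 617 FPKM in WT. Among the 3 most abundant, Ly6c2, a monocyte surface gene, differed by 0.79 and the complement genes C1qb and C1qa by -0.31 and -0.36. All 6 B cell markers reported here were below the WT range in every KO library (Cd79a, Cd79b and Vpreb3 at -1.34, -1.17 and -1.63), and 13.7% of all genes were below it. The part of these cell types in the members' differences was not tested.

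Within each library the members could be set against these markers, and the comparison depended on which markers were used. Relative to the sum of the neutrophil markers, the sum of the 5 members stood at log2 ratios of -6.11, -5.59 and -5.62 over the KO libraries, by replicate number, and of -5.58, -6.01 and -5.61 over the WT libraries. The groups overlapped and the mean difference was -0.12, and it changed sign, to 0.13, without KO replicate 1. Relative to the sum of the macrophage markers the log2 ratios were 0.56, 0.82 and 0.83 in KO and -0.0044, 0.38 and 0.044 in WT. Here the groups did not overlap and the difference was 0.55. In an alternative chosen after seeing the data, with the markers averaged on the log2 scale, so that S100a8 and S100a9 (65.6% to 70.3% of the neutrophil sum) did not dominate, the difference for the summed members was -0.18 against neutrophil markers and 0.74 against macrophage markers. Relative to the neutrophil average, Cyba stood at -1.62, -1.92 and -2.0 in KO and -1.42, -1.42 and -1.36 in WT, below in every KO library, while Cybb, Ncf1 and Rac2 overlapped between the groups. Ncf4 lay at -3.13 to -3.15 in KO and -2.95 to -3.15 in WT. Relative to the summed macrophage markers Cyba overlapped between the groups, with -1.06 to -1.16 in KO and -1.11 to -1.66 in WT, and the other 4 members did not. These ratios were not tested.

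**Figure D3:**
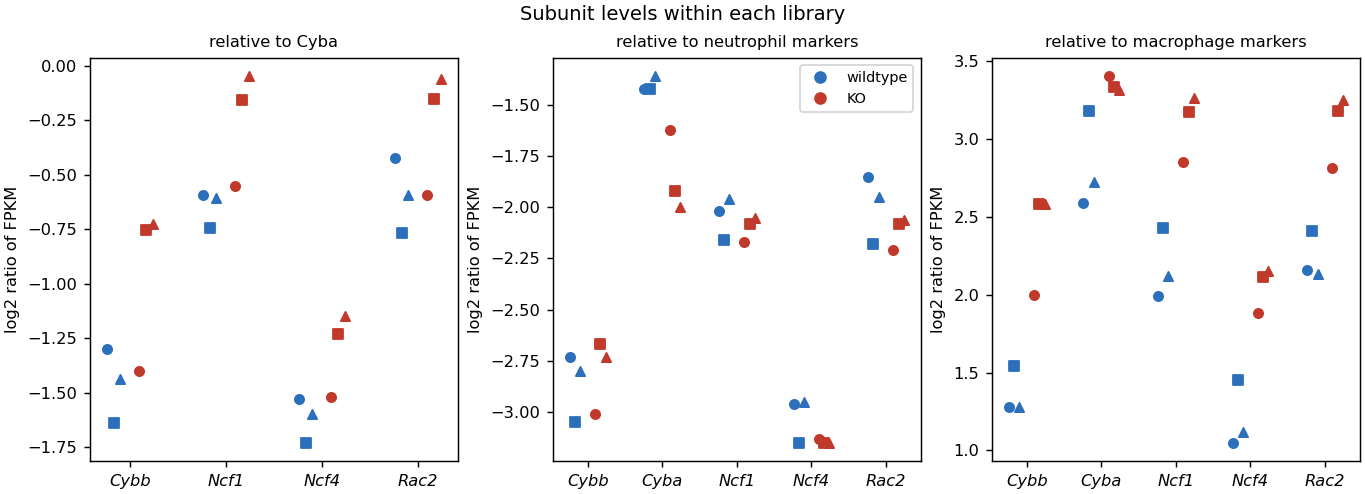
Log2 ratio of FPKM (vertical axis, a separate scale per panel) of each member to Cyba, to the mean log2 level of the neutrophil markers and to that of the macrophage markers, in WT (blue) and KO (red) libraries. Circles, squares and triangles are replicates 1, 2 and 3. Against Cyba, the red circles lie at or near the blue points. Against neutrophil markers the groups overlap for Cybb, Ncf1 and Rac2 and KO is lower for Cyba, and against macrophage markers all KO points are above all WT points for each member.

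The products of Cybb and Cyba form a heterodimer in the membrane, and their transcripts were compared within each library. The log2 ratio of Cybb to Cyba was -1.40, -0.75 and -0.73 over the KO libraries by replicate number, against -1.30, -1.64 and -1.44 over the WT libraries. The library labelled KO replicate 1 thus lay within the WT range, and the other KO libraries lay above it. The ratio of Ncf1 to Cyba was -0.55, -0.16 and -0.049 in KO and -0.59, -0.75 and -0.61 in WT, and that of Ncf4 to Cyba was -1.52, -1.23 and -1.15 in KO and -1.53, -1.73 and -1.60 in WT. The ratio of Rac2 to Cyba was -0.59, -0.15 and -0.062 in KO and -0.42, -0.77 and -0.59 in WT. In the library labelled KO replicate 1, Rac2 also lay within the WT range and Ncf1 and Ncf4 lay just above it. KO replicates 2 and 3, which count as 1 sample, were above the WT range for all 4 genes, and without them the KO minus WT difference was 0.063 for Cybb, 0.098 for Ncf1, 0.11 for Ncf4 and 0.00011 for Rac2. Across the 5 samples, the closest profiles among the members were those of Ncf1 and Ncf4, with a root-mean-square difference of 0.051 in centred log2 CPM (counts scaled to the library total), and the farthest were those of Cybb and Cyba, with 0.302.

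The direction of all 5 members held in all 16 alternative settings. These settings reuse the same 6 libraries, in which each member was higher in every KO library, so a reversal was hardly possible. The log2 difference ranged from 0.63 to 1.08 for Cybb, 0.33 to 0.59 for Cyba, 0.66 to 0.89 for Ncf1, 0.64 to 0.81 for Ncf4 and 0.57 to 0.84 for Rac2. The lowest value of Cybb, Rac2 and Ncf1 came without KO replicates 2 and 3, and Cyba and Ncf4 were lowest without WT replicate 1.

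**Figure D4:**
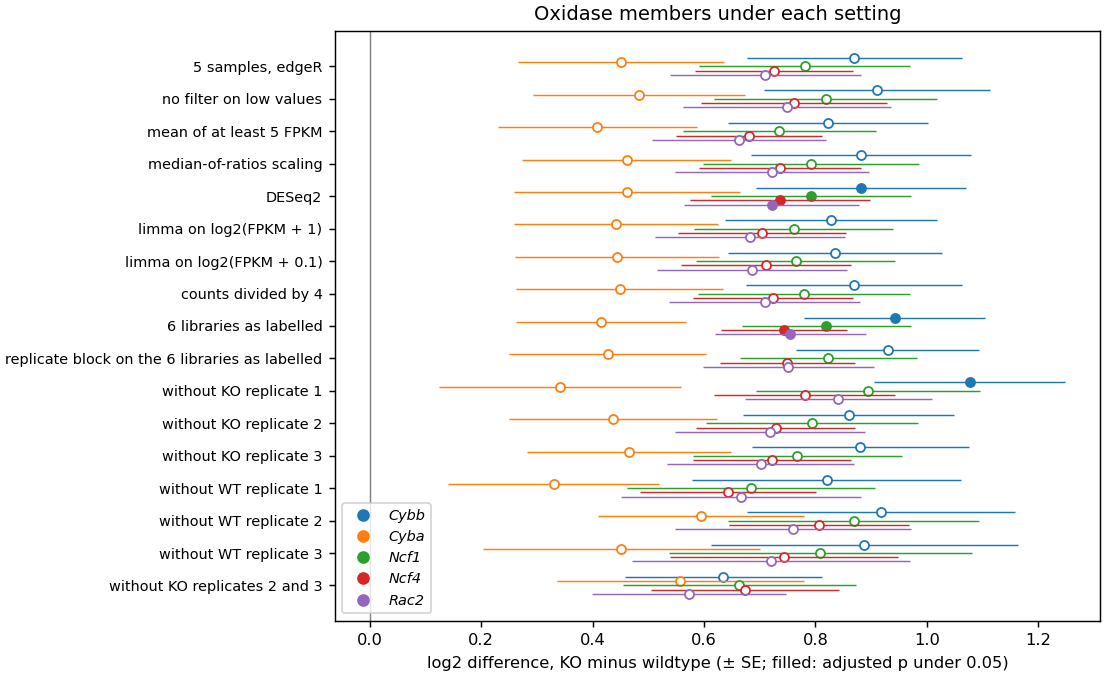
Log2 difference (KO minus WT, horizontal axis, ± SE) of each oxidase member under each setting, listed from top to bottom. Filled points had an adjusted p under 0.05 and open points did not. Every point lies right of 0, and filled points occur with DESeq2, with the 6 libraries as labelled and, for Cybb, without KO replicate 1. The setting without KO replicate 1 left 1 KO sample.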

How the data were processed

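RNA sequencing of cartilage from 3 KO and 3 WT libraries was analysed, grouped by sample title. The gene knocked out and some genes of the lists are not reported here, and list counts are without them. Per the labels, oligo(dT)-selected mRNA was made into strand-specific libraries with molecular identifiers, read as pairs of 150 bp. The submitters' processing notes name cutadapt 1.9, HISAT2 2.0.4, UMI-tools, StringTie 1.3.4d, DESeq2 and edgeR, with no roles. The authors deposited FPKM values, scaled within each library, and estimated counts per gene. The deposited counts were whole but piled up at 4 (6596 values) against 3 (4170) and 5 (2332), so a count was not taken as a single read pair. The build is not given in the sources used here, and gene positions matched GENCODE vM21 (GRCm38) for 91.5% of 34607 matched identifiers. All per-sample columns were matched by name and 0 were left unused.

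The 15373 genes averaging 0.5 FPKM or more were tested on counts with edgeR 4.0.16 (quasi-likelihood, TMM scaling; R 4.3.3), with Benjamini-Hochberg adjustment over all of them and a threshold of 0.05. The SE is the log2 difference divided by the root of its F statistic. KO replicates 2 and 3 were averaged. If each count were an independent read pair, a count of 0 would allow up to 0.0474 to 0.0574 CPM (3 counts). This covers counting error only, and the condition may not hold for these counts. Alternatives were DESeq2 1.42.0, limma 3.58.1 on log2(FPKM + 1) or log2(FPKM + 0.1), another scaling, other filters, counts divided by 4, a replicate block, the 6 libraries as labelled, and leaving out libraries. The steps were tested on simulated data. Ratios are of FPKM and were not tested. Named genes are the members, Rac1, Cybc1, Spi1, Hvcn1, Mpo, the 3 smallest p of each pathway list, the 3 most abundant markers of each marker list and the 2 genes closest in profile to each member. Of the marker lists outside neutrophils, macrophages and B cells, only list values are given, and Rap1a, Nox4, Sod1, Gtf2ird2, Nkg7 and the chondrocyte genes named were singled out after their values were seen. The members, the lists and the averaging of KO replicates 2 and 3 were chosen with earlier results of these data known.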

Additional observations from a re-analysis of the deposited data

How the results depend on the processing

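The number of genes called over the whole table depended on the tool, the filter and the libraries used. From 0 in the edgeR fit of 5 samples (2106 at an unadjusted p under 0.05), the count became 21 with no filter on low values, 880 with DESeq2 and 570 for all 6 libraries. It ranged from 0 to 352 when single libraries were left out (352 without KO replicate 1, 1 without WT replicate 2 and 1 without WT replicate 3) and 9 without KO replicates 2 and 3. Of the 5 members, 4 passed with DESeq2 and 4 with the 6 libraries. With DESeq2 the log2 differences were 0.88 for Cybb (adjusted p = 0.000382), 0.79 for Ncf1 (0.000965), 0.74 for Ncf4 (0.000618) and 0.72 for Rac2 (0.000524). With the 6 libraries they were 0.94, 0.82, 0.74 and 0.76. Leaving out single libraries gave 0.82 to 1.08 for Cybb, 0.33 to 0.59 for Cyba, 0.68 to 0.89 for Ncf1, 0.64 to 0.81 for Ncf4 and 0.67 to 0.84 for Rac2. Chosen after seeing the data, the same was done for the ratios to Cyba, whose KO minus WT difference was 0.31 to 0.72 (Cybb), 0.27 to 0.55 (Ncf1), 0.21 to 0.43 (Ncf4) and 0.16 to 0.49 (Rac2) without single libraries, highest without KO replicate 1, and 0.063, 0.098, 0.11 and 0.00011 without KO replicates 2 and 3. The cause was not tested. Deviations from the group mean correlated at -0.145, -0.108 and -0.0581 between KO and WT libraries of the same replicate number. With KO replicates 2 and 3 nearly identical, these values were not independent and could not decide whether the samples were paired. With the replicate block 0 genes and 0 members passed, with Cybb at 0.93 (edgeR adjusted p = 0.0894). A lone library left in a group was assumed to vary like the other group. The other 35 genes run through the same alternatives (for Sod1 and the genes most like a member, an addition made after seeing the data) kept their direction in all of them. Nkg7, Gtf2ird2 and the chondrocyte genes, given by level only, were not run.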

Other observations

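The genes whose profile over the 5 samples was most like a member were found by the root-mean-square difference of centred log2 CPM, among genes averaging 5 FPKM or more. For Cybb they were Nfam1 (0.0308), at 35.9, 55.0 and 54.7 FPKM in KO replicates 1, 2 and 3 and 23.0, 25.9 and 25.6 FPKM in WT, and Ms4a6c (0.0353). For Ncf1 they were Spi1 (0.0347) and Aldh3b1 (0.0381), and for Ncf4 they were Plaur (0.0314), the urokinase receptor gene, and again Spi1 (0.0351). For Rac2 they were Slc2a6 (0.0217) and Gpr160 (0.0277), which stood at 5.65 to 10.9 FPKM and 4.62 to 9.01 FPKM over the 6 libraries. All of these had a log2 difference between 0.70 and 0.88. Their choice by likeness to a member over the same samples largely fixed this, and the same holds for the neighbours of Cyba. Cyba had other neighbours, Cptp (0.0295) and Pdlim2 (0.0372), at log2 differences of 0.43 and 0.39 with edgeR adjusted p = 0.447 and 0.409.

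Beside the members, markers of other cell types also differed between the libraries. Summed erythroid markers were 21011 to 52226 FPKM in KO and 60365 to 93668 FPKM in WT. All 6 tested erythroid markers were below the WT range in every KO library, as were 13.7% of all genes. Summed osteoclast markers were 369 to 423 FPKM in KO and 1247, 566 and 502 FPKM in WT replicates 1, 2 and 3. By fitted log2 difference 6 of 6 osteoclast markers were lower, while 47.5% of all genes were higher. Of 6 T and NK cell markers, 5 were lower, but their sum, led by Nkg7, was 86.5 to 107 FPKM in KO and 63.3 to 78.1 FPKM in WT. Ptprc, the leukocyte gene for CD45, stood at 22.7, 38.2 and 37.8 FPKM in KO replicates 1, 2 and 3 and 23.9, 19.7 and 21.7 FPKM in WT, so the library labelled KO replicate 1 lay within the WT range. The log2 ratio of the summed members to Ptprc was 5.33, 4.82 and 4.83 in KO and 4.58, 5.12 and 4.88 in WT, and the groups overlapped. Chondrocyte markers summed to 1187, 505 and 510 FPKM in KO replicates 1, 2 and 3 and 515 to 684 FPKM in WT. The sum of KO replicate 1 was mostly Prg4, at 1034 FPKM, and those of KO replicates 2 and 3 lay below the WT range. Of 6 tested, 3 were higher, against 47.5% of all genes.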
